A study of Mus musculus with 10 samples.

Results

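Heat shock chaperones were followed in bone marrow (BM) taken from recipients of fetal liver HSCs, the hematopoietic stem cells of embryos whose dams had been vitamin D-deficient [VD(-)] or vitamin D-sufficient [VD(+)]. The listed chaperone genes were Hsph1, Hspa1b, Hspa8, Hsp90aa1, Hsp90ab1, Dnajb1, Dnaja1, Hspd1 and Hspe1, with Hsf1, the transcription factor that drives them. Of these 10 genes, 7 had a probe set of their own among the 19938 genes measured by a probe set that lists 1 gene, and a gene with several such probe sets was read from the brightest. Hspa1b was listed only together with its neighbour and near-identical copy Hspa1a, and Hsp90ab1 and Hsf1 were not analysed here.

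The study asked whether vitamin D deficiency in utero leaves a program in HSCs that persists in transplant recipients. All donors and recipients were C57BL6 mice without engineered alleles, and the diet of the pregnant dam was the planned difference between the groups. The signal of male cells also differed between the groups, as given below. The recipients were vitamin D-sufficient and lethally irradiated before transplant. The BM therefore holds donor cells beside whatever host stroma and surviving host cells remain. Total RNA was hybridised to 10 arrays, 5 for each type of recipient, and in each group 3 arrays carried single samples and 2 carried pooled RNA. The labels give mice of 8 weeks and of both sexes, and name macrophages of the BM in one field and BM in another. The time of collection after transplant is given differently in the text of the paper and in a legend. Neutrophil markers had a mean log2 value between 11.10 and 11.56 in each array and erythroid markers one between 9.10 and 9.38, against array medians of 4.74 to 4.80, so transcripts of marrow cells other than macrophages were present in every array.

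Cells keep their proteins folded with families of molecular chaperones. HSP70 proteins (Hspa8, always made, and Hspa1a and Hspa1b, made under stress) bind unfolded stretches of a protein, J-domain proteins of the HSP40 family (Dnaja1, Dnajb1) deliver the client and start the ATP cycle of HSP70, HSP110 (Hsph1) releases the spent nucleotide, and HSP90 (Hsp90aa1, Hsp90ab1) takes over clients such as kinases and steroid receptors. In mitochondria the barrel of HSP60 (Hspd1) and its lid HSP10 (Hspe1) fold imported proteins. Heat shock factor 1 is held inactive by chaperones, and when unfolded proteins accumulate it forms trimers that bind arrays of the 5-base unit nGAAn in the promoters of these genes.

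Promoters of 4 of the genes are printed because they hold several matches to that element in a row (Hspe1, Hsph1), a single match in a stress-inducible gene (Hspa1b), or a single match in a gene whose probe sets went opposite ways (Dnaja1). Each sequence is the window from 250 bases before to 50 bases after an annotated start in the RefSeq annotation of GRCm38.p6, on the strand of the gene. Matches to GAANNTTC (a pair of units facing towards each other) or TTCNNGAA (a pair facing away from each other) are in capitals. A run in which these matches overlap holds at least 3 units in a row.
Hspe1, chr1:55087898-55088197, plus strand: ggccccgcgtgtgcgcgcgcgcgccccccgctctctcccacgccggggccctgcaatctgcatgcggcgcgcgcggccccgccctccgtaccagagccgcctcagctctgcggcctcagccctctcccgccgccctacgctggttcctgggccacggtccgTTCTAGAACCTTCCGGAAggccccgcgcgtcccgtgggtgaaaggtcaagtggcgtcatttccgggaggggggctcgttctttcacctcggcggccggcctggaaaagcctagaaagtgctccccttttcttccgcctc
Hsph1, chr5:149636287-149636586, minus strand: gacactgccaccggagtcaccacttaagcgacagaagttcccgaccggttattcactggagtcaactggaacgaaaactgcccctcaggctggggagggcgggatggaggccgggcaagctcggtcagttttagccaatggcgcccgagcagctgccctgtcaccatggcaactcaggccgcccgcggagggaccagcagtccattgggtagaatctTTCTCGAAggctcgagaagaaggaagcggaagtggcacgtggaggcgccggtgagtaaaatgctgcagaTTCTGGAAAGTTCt
Hspa1b, chr17:34959189-34959488, minus strand: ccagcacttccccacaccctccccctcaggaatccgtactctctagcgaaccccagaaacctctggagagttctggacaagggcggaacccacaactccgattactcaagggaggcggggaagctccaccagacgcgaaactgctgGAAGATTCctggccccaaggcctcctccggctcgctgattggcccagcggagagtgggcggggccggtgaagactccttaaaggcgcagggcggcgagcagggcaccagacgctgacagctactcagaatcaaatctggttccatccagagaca
Dnaja1, chr4:40722218-40722517, plus strand: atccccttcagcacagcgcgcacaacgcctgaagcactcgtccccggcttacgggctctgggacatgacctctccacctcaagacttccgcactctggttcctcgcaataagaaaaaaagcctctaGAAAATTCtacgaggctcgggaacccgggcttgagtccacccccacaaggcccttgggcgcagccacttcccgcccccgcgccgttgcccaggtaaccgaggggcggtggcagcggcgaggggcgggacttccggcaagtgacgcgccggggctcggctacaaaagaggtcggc
Hspd1 and Hspe1 lie head to head on chromosome 1, and the Hspe1 window shares its run of 3 overlapping matches, read on the other strand, with a window of Hspd1. In Hspe1 the matches begin at positions -89 to -79 relative to the start. In Hsph1 the first of 3 matches begins at position -33 and an overlapping pair ends the window, while Hspa1b and this window of Dnaja1 held 1 match each, and neither window of Dnajb1 held one. Of the 32851 windows of this length in the table, 15.1% held at least 1 match and 0.603% held overlapping ones, so a lone match is common and the overlapping form is rare. Windows were given for 6 of the listed genes, of which 5 held a match and 3 (Hspd1, Hspe1 and Hsph1) the overlapping form. A match is a run of letters and not evidence that the factor was bound.

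On their brightest probe sets all 7 measured chaperones had a higher mean in VD(-) than in VD(+) HSC recipient BM, by small amounts, and none passed the test across all probe sets. Their log2 fold changes ran from 0.054 for Hspa8 to 0.47 for Hsph1, with a median of 0.14, the value of Dnaja1. For Dnaja1 another probe set gave -0.22, so the direction of this gene depends on the probe set, as described below. The brightest probe sets of Hsp90aa1, Dnaja1, Hspd1 and Hspe1 are numbered among probe sets of another chromosome. With probe sets numbered on the chromosome of the gene, the median of the 7 was 0.15. Over all genes the median was 0.0010 and 50.3% lay above 0, and over the 10692 brighter genes, with a mean above the median of all probe sets, the median was 0.020 and 57.1% lay above 0. At an adjusted p under 0.05, 0 of the 7 were called by limma, where 0.118% of the 35556 probe sets were. At a nominal p under 0.05, 1 of the 7 (Hsph1) was higher by limma and none was lower, where 4.05% of all genes were higher, 5.96% of brighter genes were higher and 2.95% of all genes were lower, and by the methods' own test 0 of the 7 were. In none of the 7 did the groups separate without overlap, which occurred for 1.73% of all genes. In a whole tissue a change in the share of a cell type and a change in the RNA made per cell cannot be told apart.

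Hsph1, the HSP110 nucleotide exchange factor, showed the largest difference of the 7 and also the widest spread. Its log2 values were 6.22, 6.78 and 6.12 in VD(+) replicates 1 to 3 and 6.36 and 6.17 in the VD(+) pools. In VD(-) they were 6.36, 6.72 and 7.40 in replicates 1 to 3 and 6.54 and 6.99 in the pools. All 5 VD(-) arrays lay above the VD(+) median, but VD(+) replicate 2 exceeded 3 of them, so the groups overlapped. The mean was 6.80 ± 0.41 (SD, n = 5) in VD(-) and 6.33 ± 0.27 (SD, n = 5) in VD(+). The log2 fold change was 0.47 with an SE of 0.20 and a 95% confidence interval of 0.039 to 0.91, a ratio of 1.39, with an adjusted p of 0.671 and p = 0.0714 in the two-sided exact permutation test, whose smallest possible p here is 0.00794. The spread of Hsph1 within the groups was larger than that of 89.7% of the brighter probe sets, whereas the other 6 genes stood between the 20.2 and 44.7 percentiles. VD(-) replicate 3, the highest array, set much of the difference, which was 0.32 without it (adjusted p = 0.676).

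Hspa8, the constitutive HSP70 of the cytosol, differed least. Its log2 values were 11.56, 11.68, 11.54, 11.74 and 11.46 in VD(+) replicates 1 to 3 and pools 1 and 2, and 11.53, 11.60, 11.77, 11.57 and 11.76 in VD(-) in the same order. Low and high arrays occurred in either group, and the means of 11.65 ± 0.11 and 11.59 ± 0.11 (SD, n = 5 each) differed by 0.054 (SE 0.080, adjusted p = 0.921). Its 2 other probe sets of a single gene gave 0.090 and 0.075. A further 2 probe sets list Hspa8 with Snord14c and Snord14d, small nucleolar RNAs coded in its introns, and these gave 0.32 (adjusted p = 0.695) and 0.31 (adjusted p = 0.737). On these, 4 of the 5 VD(-) arrays lay above all VD(+) arrays and VD(-) replicate 2 lay below the VD(+) median, so the small nucleolar RNA probe sets and the coding ones ordered the arrays differently.

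For the stress-inducible HSP70 genes the array gave little. The probe set shared by Hspa1a and Hspa1b lay between 5.45 and 5.86 in VD(+) and between 5.60 and 5.82 in VD(-), a difference of 0.061 (SE 0.092, adjusted p = 0.921), and reads of these copies cannot be told apart on it. The probe set of Hspa1a alone lay between 4.96 and 5.22 in VD(+) and between 4.99 and 5.31 in VD(-), a difference of 0.059 (adjusted p = 0.916). The groups overlapped over most of their range on either probe set.

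The J-domain partners of HSP70 differed little as well, and for Dnaja1 the direction depended on the probe set. The brightest probe set of Dnaja1 read 9.46, 9.86, 9.63, 9.74 and 9.59 in VD(+) replicates 1 to 3 and pools 1 and 2, and 9.78, 9.67, 9.95, 9.82 and 9.77 in VD(-). All 5 VD(-) arrays lay above the VD(+) median on it, the difference being 0.14 (SE 0.087, adjusted p = 0.792). A second probe set of Dnaja1 read 8.13, 8.03, 7.81, 8.01 and 7.97 in VD(+) and 7.82, 7.69, 7.73, 7.88 and 7.74 in VD(-), in the same order. On this one none of the VD(-) arrays lay above the VD(+) median and the difference was -0.22 (SE 0.075, adjusted p = 0.579, p = 0.0238 in the exact permutation test). A further one, which lists Dnaja1 and Mir207, gave -0.098 (adjusted p = 0.823). Probe set numbers of this array follow the genome, in that 96.8% of 21698 probe sets with 1 gene have most of their 10 nearest neighbours in number on the chromosome of their own gene. These last probe sets of Dnaja1 are numbered among probe sets of its own chromosome, while 8 of the 10 neighbours of the brightest one lie on another. No direction is therefore given for Dnaja1.

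Dnajb1, the J-domain protein most closely tied to stress, had a single probe set. It read 6.68, 6.96, 6.98, 6.99 and 6.88 in VD(+) replicates 1 to 3 and pools 1 and 2, and 6.96, 7.08, 6.97, 7.14 and 6.99 in VD(-). VD(+) replicate 1 was the lowest and the other 9 arrays lay between 6.88 and 7.14. The means of 7.03 ± 0.077 and 6.90 ± 0.13 (SD, n = 5 each) differed by 0.13 (SE 0.077, adjusted p = 0.784, p = 0.0873 in the exact permutation test), and by 0.074 without that array.

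Hsp90aa1, the inducible cytosolic HSP90, read 10.33, 10.78, 10.48, 10.77 and 10.59 in VD(+) replicates 1 to 3 and pools 1 and 2, and 10.70, 10.87, 10.76, 10.74 and 10.77 in VD(-). The VD(-) arrays lay close together and near the upper end of the VD(+) arrays, with means of 10.77 ± 0.060 and 10.59 ± 0.19 (SD, n = 5 each). The difference was 0.18 (SE 0.092, adjusted p = 0.747, p = 0.119 in the exact permutation test). Its other probe sets gave 0.17 and 0.13, with the same 3 VD(+) arrays (replicates 1 and 3 and pool 2) below all VD(-) arrays.

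The mitochondrial chaperonin and its lid had the same VD(+) arrays at the low end. Hspd1 read 9.17, 9.73, 9.44, 9.59 and 9.48 in VD(+) replicates 1 to 3 and pools 1 and 2, and 9.58, 9.56, 9.60, 9.67 and 9.58 in VD(-). Hspe1 read 10.31, 10.76, 10.57, 10.75 and 10.57 in VD(+) and 10.74, 10.81, 10.68, 10.86 and 10.69 in VD(-), in the same order. In both genes VD(+) replicates 1 and 3 and pool 2 lay below every VD(-) array, while VD(+) replicate 2 and pool 1 lay among them or, for Hspd1 in replicate 2, above. The differences were 0.12 (SE 0.096, adjusted p = 0.831) for Hspd1 and 0.16 (SE 0.093, adjusted p = 0.765, p = 0.0952 in the exact permutation test) for Hspe1. The SD of Hspd1 was 0.041 in VD(-) and 0.21 in VD(+). The brightest probe sets of Hspd1, Hspe1 and Hsp90aa1 are also numbered among probe sets of another chromosome, and those on the own chromosome gave 0.15, 0.20 and 0.17, in the same direction. On the brightest probe sets, but not on those of Dnaja1 and Hspe1 on their own chromosome, the 95% confidence intervals of the 6 genes other than Hsph1 lay within -0.12 and 0.38 on the log2 scale, which are ratios of 0.919 and 1.30.

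**Figure D1:**
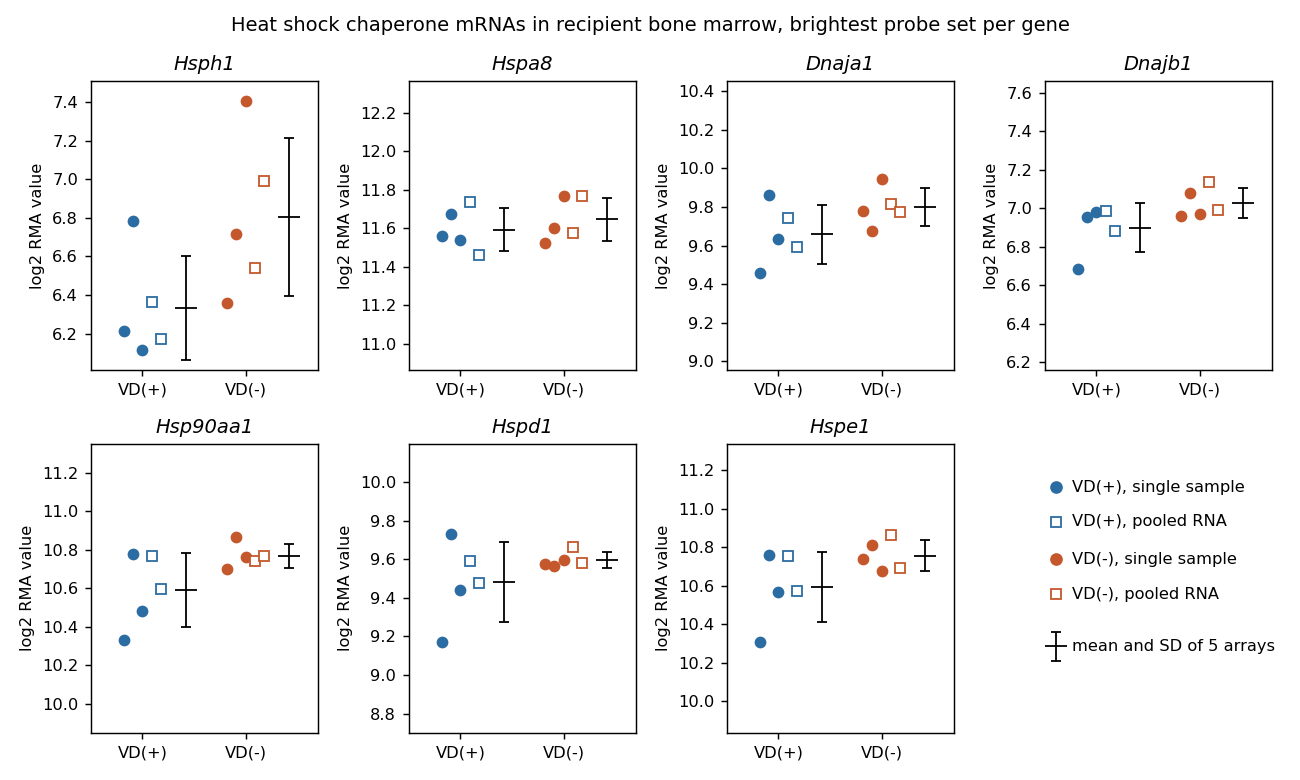
Log2 RMA value (vertical axis, all panels spanning 1.5 log2 units) of the 7 measured chaperones in VD(+) and VD(-) HSC recipient BM, 1 point per array, filled circles for single samples and open squares for pooled RNA, with the mean and SD of the 5 arrays of a group. The groups overlap in every panel, and the lowest VD(+) point is replicate 1 in 5 of the 7 genes.

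**Figure D2:**
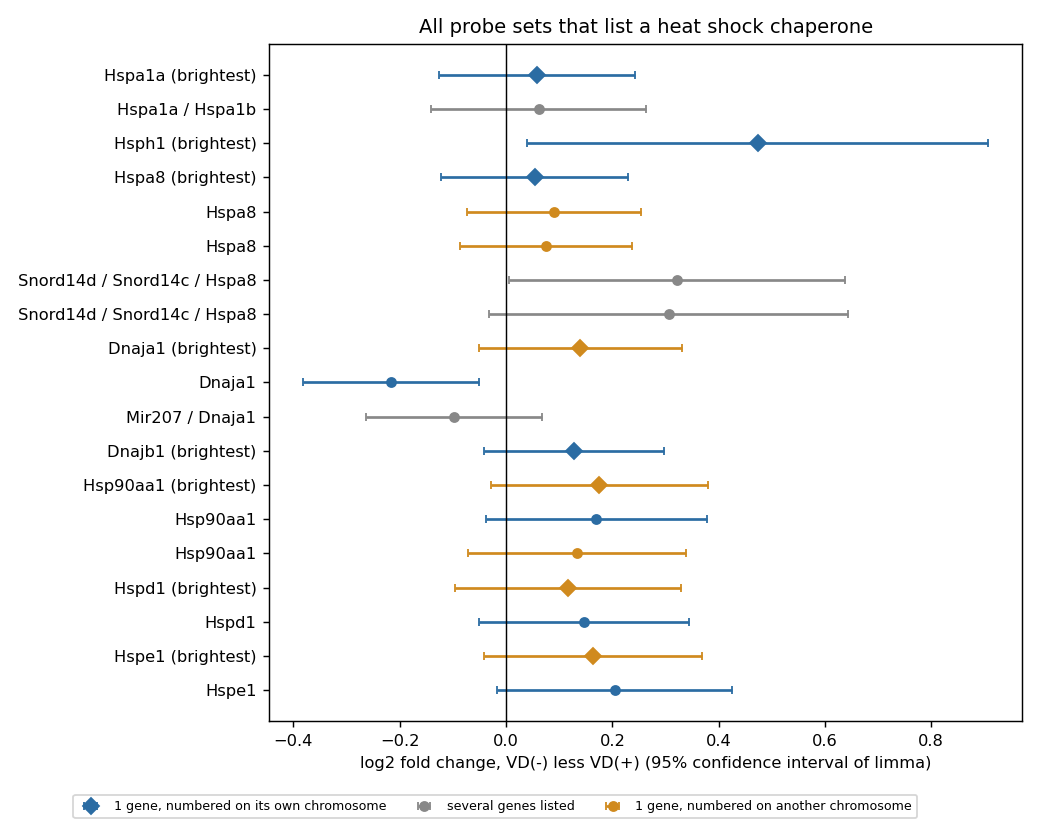
Log2 fold change, VD(-) less VD(+), with the 95% confidence interval of limma (horizontal axis) for each probe set that lists a measured chaperone or Hspa1a, diamonds being the brightest probe set of a gene and colours giving where the probe set is numbered. Most estimates lie above 0 with intervals that cross it, and the probe sets of Dnaja1 fall on either side of 0.

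The chaperones varied together between arrays within a group. Taking each array less its group mean on the brightest probe sets, 20 of the 21 pairs of the 7 genes correlated above 0. The median Pearson r over the 10 arrays was 0.63. The closest were Hspd1 with Hspe1 (r = 0.92), then Dnajb1 with Hspe1 (0.89) and Hsp90aa1 with Hspe1 (0.88). The probe sets of Hspd1 and Hspe1 used here are not numbered among those of their own chromosome. Hsph1 went with Hspa8 (0.81) and with neither Hspe1 (0.10) nor Dnajb1 (-0.02). The groups were not taken apart, and their spreads differed. The SD of Hspd1 was 0.21 in VD(+) and 0.041 in VD(-), and that of Hsph1 was 0.27 and 0.41. The correlations therefore need not hold among the arrays of 1 group alone. The arrays share one processing and the values within an array are not independent, so these are descriptions.

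This shared variation sat in a few arrays. The mean of the 7 genes, each centred on its mean over the 10 arrays, was -0.29, 0.11, -0.14, 0.025 and -0.15 in VD(+) replicates 1 to 3 and pools 1 and 2. In VD(-) it was -0.018, 0.077, 0.19, 0.081 and 0.11. The VD(-) arrays thus lay in a narrow band, with an SD of 0.076 against 0.16 in VD(+), and VD(+) replicates 1 and 3 and pool 2 lay below it. VD(+) replicate 1 was the lowest of the 10 arrays in 5 of the 7 genes, and VD(-) replicate 3 the highest in 3. Without VD(+) replicate 1 all 7 differences stayed above 0, with a median of 0.090 and 0 genes at a nominal p under 0.05, and the differences of Hsp90aa1, Hspd1 and Hspe1 became 0.11, 0.038 and 0.093. The genes whose deviations followed this mean most closely, of 10328 brighter genes, were Plek2 (r = 0.96), Shtn1 (0.96), Mbnl3 (0.93), Rpn1 (0.93) and Wrn (0.92), and their own log2 fold changes were 0.30, 0.13, -0.037, 0.11 and 0.073, none at a nominal p under 0.05. Of the 12 closest genes 1 was at a nominal p under 0.05, where 5.96% of brighter genes were higher. It was Msr1, a scavenger receptor of macrophages named after its values were seen, with r = 0.92 and a log2 fold change of 0.60 (adjusted p = 0.308).

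**Figure D3:**
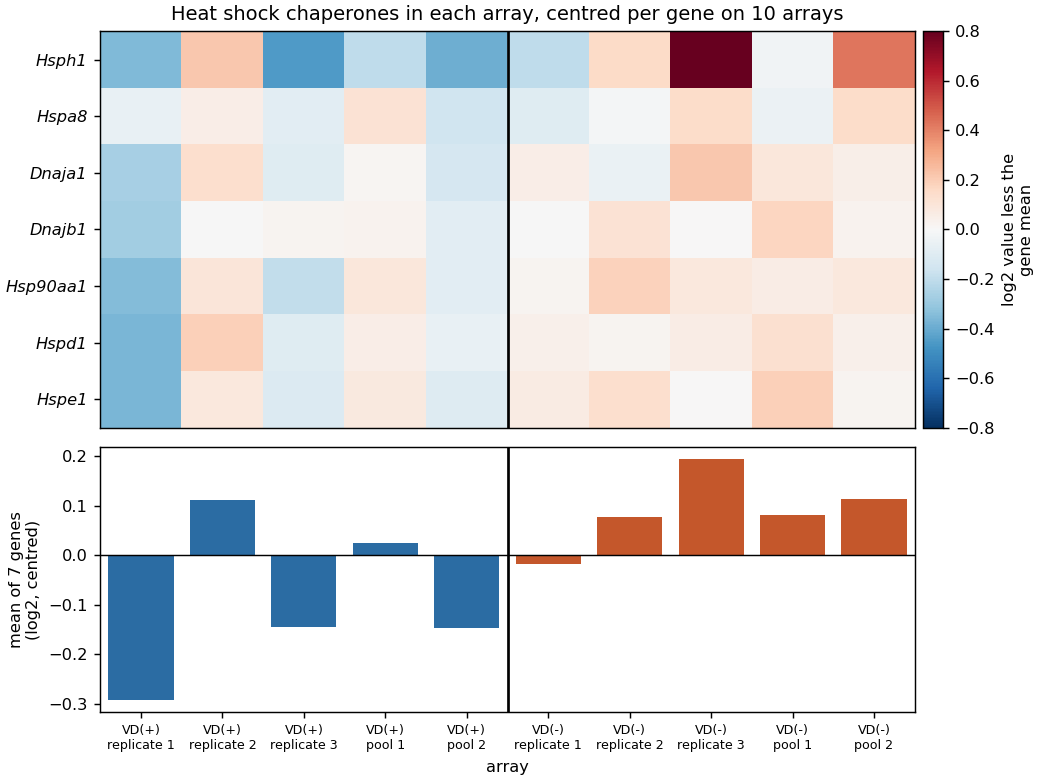
Upper panel, log2 value of each chaperone less its mean over 10 arrays (colour, red higher), arrays in columns with VD(+) left and VD(-) right of the line; lower panel, the mean of the 7 genes in each array. VD(+) replicate 1 is the lowest array at -0.29 and VD(-) replicate 3 the highest at 0.19.

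Other properties of the arrays moved with the groups. Y-linked genes had a mean log2 value of 6.64, 6.80 and 5.31 in VD(-) replicate 1, pool 1 and pool 2 and of 2.25 to 2.56 in the other 7 arrays, so 3 VD(-) arrays and no VD(+) array carried a signal of male cells. Among the VD(-) arrays only replicates 2 and 3 were without that signal, and replicate 3 was the highest array for Hsph1. With the 7 arrays without that signal the median of the chaperones was 0.15 and Hsph1 differed by 0.73 (adjusted p = 0.739). Of the 11 measured markers of mature B cells 11 were lower in VD(-), 5 at a nominal p under 0.05, where 2.95% of all genes were, and 1, Fcer2a, at an adjusted p of 0.0305. That call was lost by the methods' test (adjusted p = 0.0984) and without VD(+) replicate 1 (adjusted p = 0.0997). The mature B cell list had a mean of 6.93 to 7.33 in VD(-) and 7.22 to 7.59 in VD(+). Of 13 markers of monocytes and macrophages 12 were higher in VD(-), 4 at a nominal p under 0.05, where 4.05% of all genes were, and 2 without VD(+) replicate 1, and the list mean was 7.58 to 7.97 in VD(-) and 7.19 to 7.66 in VD(+). Of 11 markers of stroma and endothelium 9 were higher, 2 at a nominal p under 0.05, where 4.05% of all genes were. That count was 0 without VD(+) replicate 1, and the list mean was 6.47 to 7.01 in VD(-) and 6.34 to 6.71 in VD(+). VD(+) replicate 1, the array lowest in the chaperones, was also the lowest in the monocyte and stromal lists. The other 6 marker lists were of pro-B and pre-B cells, erythroid cells, neutrophils, T and NK cells, megakaryocytes and stem and progenitor cells. They had medians between -0.12 and 0.18 and held 1 gene in all at a nominal p under 0.05, and 0 without VD(+) replicate 1. At that threshold 4.05% of all genes were higher and 2.95% lower. Over all genes 50.3% lay above 0, and over brighter genes 57.1%. The part of sex and of these cell types in the chaperone differences was not tested.

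Beyond these genes, the wider chaperone network of 115 measured genes in 11 lists leaned the same way without any single gene passing. In this network 0 genes were called at an adjusted p by limma or by the methods' test, and 17 were higher and 1 lower at a nominal p under 0.05. Above 0 lay 84 (73.0%), with a median of 0.072, where 50.3% of all genes lay above 0. Of the brighter genes of the network 72.8% lay above 0, where 57.1% of all brighter genes did. The 17 are 14.8% of the network, and 15.5% of its 103 brighter genes were higher at that threshold, where the share of all brighter genes was 5.96% as above. The 17 became 9 without VD(+) replicate 1, 4 with the single samples alone and 3 with the pools alone. The share of all genes in these fits is not given here, so these counts cannot be set against 5.96%. The groups did not overlap for 4 of the 115 (3.48%), where the share of all genes was 1.73%, and all 4 were higher in VD(-). They are St13, Fkbp4, Ppid and Nudc, cochaperones that work with HSP70 or HSP90.

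St13, which slows the release of clients from HSP70, read 8.00 to 8.17 in VD(+) and 8.24 to 8.30 in VD(-), a difference of 0.18 (SE 0.059, adjusted p = 0.561). Fkbp4, an immunophilin that joins HSP90 to steroid receptors, read 7.36 to 7.59 in VD(+) and 7.64 to 7.90 in VD(-), a difference of 0.25 (SE 0.072, adjusted p = 0.465). Ppid, a cyclophilin of the same complexes, read 7.85 to 8.12 in VD(+) and 8.17 to 8.40 in VD(-), a difference of 0.25 (SE 0.074, adjusted p = 0.517). Nudc, a cochaperone of HSP90 named here after its values were seen, read 8.18 to 8.50 in VD(+) and 8.55 to 8.84 in VD(-), a difference of 0.27 (SE 0.083, adjusted p = 0.537). The steroid receptor immunophilin Fkbp5, also named after its values were seen, was the 1 gene of the network lower at a nominal p under 0.05, at 7.09 to 7.55 in VD(+) and 6.70 to 7.23 in VD(-), a difference of -0.33 (SE 0.11, adjusted p = 0.582). Fkbp4 and its paralog Fkbp5, which compete for the same site on HSP90, thus lay on opposite sides of 0. Of the 16 measured HSP90 cochaperones, 12 had a log2 fold change over 0, where 57.1% of brighter genes did. The list had a median of 0.095. At a nominal p under 0.05, 5 were higher, where 4.05% of all genes and 5.96% of brighter genes were. Without VD(+) replicate 1, 4 were higher at that threshold and the median was 0.058.

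Among the partners and relatives of HSP70, the 9 other HSP70 and HSP110 genes had a median of 0.058 and 0 at a nominal p under 0.05, with Hspa4l, a testis-rich HSP110, at 0.10 (adjusted p = 0.796) and Hspa12b, a distant endothelial relative, at -0.20 (adjusted p = 0.799). The 9 exchange factors and inhibitors had a median of 0.054, 1 of them (St13) higher at a nominal p under 0.05. At that threshold 4.05% of all genes and 5.96% of brighter genes were higher and 2.95% of all genes were lower. Bag5, a BAG-domain exchange factor, was at 0.19 (adjusted p = 0.802), and at 0.093 without VD(+) replicate 1. The 14 other J-domain proteins had a median of -0.022 and 9 lay below 0, among them Dnajb2 at -0.13 (adjusted p = 0.724) and Dnaja4 at -0.14 (adjusted p = 0.823), with 0 at a nominal p under 0.05. The small heat shock proteins, which hold unfolded proteins without ATP, had a median of 0.10 over 9 genes. Among them Cryab read 3.68 to 4.53 in VD(+) and 4.39 to 5.10 in VD(-), a difference of 0.56 (SE 0.17, adjusted p = 0.520) at values near or below the array medians, and Hspb1 differed by 0.16 (adjusted p = 0.747).

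In the cytosol, actin and tubulin are folded by the CCT chaperonin, to which prefoldin hands them. Of the CCT subunits, 8 in all, 7 had a log2 fold change over 0, with a median of 0.10 and 2 at a nominal p under 0.05, Cct8 at 0.22 (adjusted p = 0.562) and Cct3 at 0.23 (adjusted p = 0.634). Of the 6 prefoldin subunits 5 lay above 0, with a median of 0.16 and 3 at a nominal p under 0.05, among them Pfdn2 at 0.18 (adjusted p = 0.671) and Pfdn4 at 0.28 (adjusted p = 0.692). At that threshold 4.05% of all genes and 5.96% of brighter genes were higher. In mitochondria 14 of 16 other chaperones and proteases lay above 0, with a median of 0.13. Of all brighter genes 57.1% lay above 0. Trap1, the mitochondrial HSP90, read 7.13 to 7.52 in VD(+) and 7.51 to 7.69 in VD(-), a difference of 0.26 (SE 0.081, adjusted p = 0.542). Clpp, the protease of the matrix unfolded protein response, differed by 0.23 (adjusted p = 0.683), and Hspa9, the mitochondrial HSP70 that pulls in precursors, by 0.13 (SE 0.081, adjusted p = 0.796). In the CCT, prefoldin and mitochondrial lists VD(+) replicate 1 had the lowest list mean of the 10 arrays, and without it the count at a nominal p under 0.05 was 1 in each, with medians of 0.063, 0.11 and 0.099. Hspa9 was then at 0.079.

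The family of heat shock factors and its regulators differed little on the array, but heat shock factor 1 itself was not analysed here. Some of the measured factors read below the array medians, where little can be seen. The 7 measured genes of the family and its regulators had a median of -0.0059 and 0 at a nominal p under 0.05, with Hsbp1, a small protein that binds the trimer of heat shock factor 1, at 0.16 (adjusted p = 0.766) and Hsf2, another heat shock factor, at 0.11 (adjusted p = 0.868). Without VD(+) replicate 1 the median was 0.021, and Hsbp1 and Hsf2 were at 0.098 and 0.055. The 8 measured genes of the list of other heat shock factor 1 targets, some of which belong to lists above, all lay above 0. Their median was 0.20. Of all brighter genes 57.1% lay above 0. At a nominal p under 0.05, 3 of the 8 targets were higher, where 4.05% of all genes and 5.96% of brighter genes were. The 3 were Fkbp4, Stip1, the adaptor that joins HSP70 to HSP90, at 0.23 (adjusted p = 0.682), and Serpinh1, the collagen chaperone HSP47, at 0.37 (adjusted p = 0.645). The mean of this list was 7.81 to 7.93 in VD(-) and 7.50 to 7.76 in VD(+) without overlap, a description of these arrays that was not tested. In every other list the ranges of the list mean overlapped between the groups, and all lists were chosen with earlier results of these data known. VD(+) replicate 1 was the lowest array of this list, and without it 1 of its genes, Fkbp4, was at a nominal p under 0.05 and the median was 0.16.

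**Figure D4:**
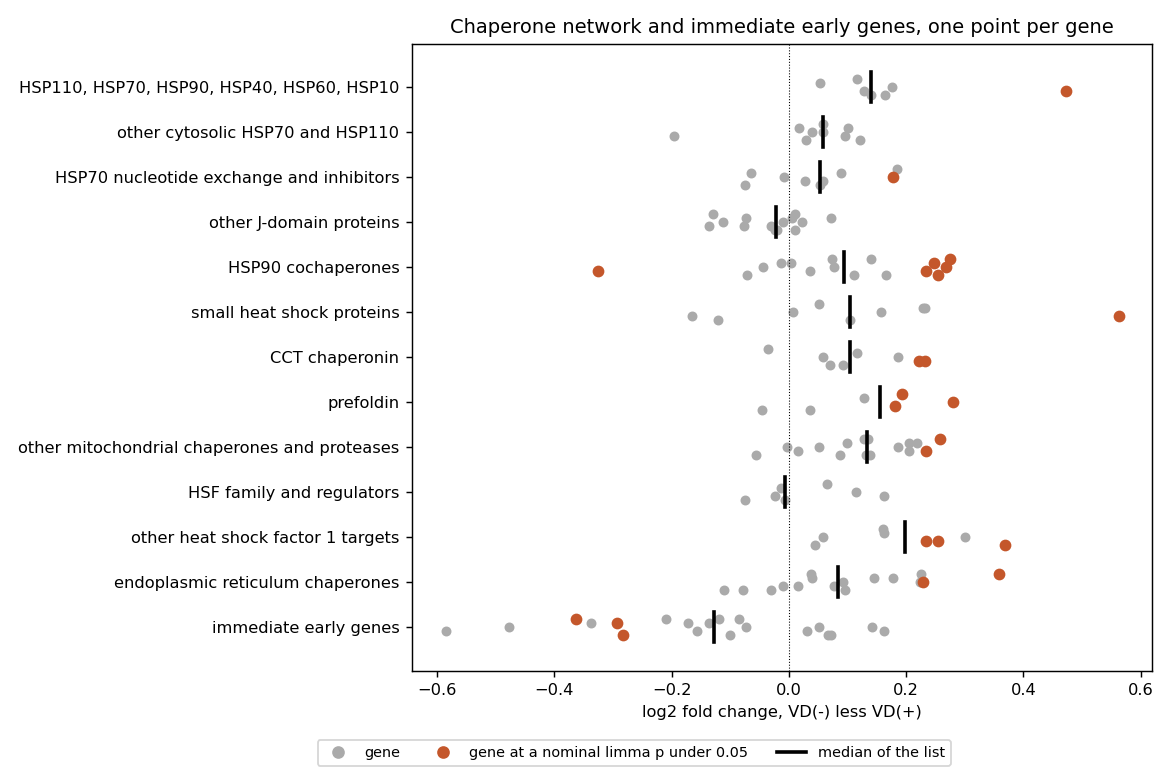
Log2 fold change, VD(-) less VD(+) (horizontal axis), of each gene of 13 lists, 1 point per gene, orange where the nominal limma p is under 0.05, with a black bar at the median of the list. The medians of HSP90 cochaperones, CCT, prefoldin, mitochondrial chaperones and heat shock factor 1 targets lie between 0.095 and 0.20, and that of the other J-domain proteins at -0.022.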

How the data were processed

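Total RNA of recipient BM was amplified and hybridised to Affymetrix arrays. The methods name a miRNA array, while the probe sets of the deposited table are those of a whole-transcript mouse gene array. The authors deposited log2 values made by RMA in Partek software, as the submitters' processing notes have it. This method corrects the background, gives all arrays the same distribution and summarises the probes of a probe set, so a difference in total RNA is removed. The sources used here do not name the genome build behind the probe sets or any filter. The table has 0 columns that were not used. An array has no count of reads, and its precision is limited by the 5 arrays per group.

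Of 35556 probe sets, 21789 list 1 gene, 1621 several and 12146 none. Symbols were checked by gene identifier for 21698, and 0 changed. The brightest probe set of a gene was used. Groups, taken from the labels, were compared two-sided on all probe sets with limma 3.58.1 (lmFit, eBayes) under R 4.3.3, with Benjamini-Hochberg adjustment over all 35556, and fold changes are VD(-) less VD(+). Single genes were also tested by the exact permutation test over the 252 assignments of 10 arrays. A nominal p is limma's before adjustment, and "the methods' test" is the two-tailed test named in the study's legend. The labels do not say whether a pool shares mice with the single samples, so the p-values reflect array-to-array spread, which may be technical. The procedure was tested on simulated data.

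The genes and the 24 lists, 9 of them of cell type markers, were chosen with earlier results of these data known. Named are the listed genes, the 2 genes of each chaperone list with the smallest nominal p, Hspa1a, Hspa5, Hspa9 and Hsp90b1, any list gene past the adjusted p, and the 5 genes most correlated with the chaperone mean. Nudc, Fkbp5, Stip1, Klf2, Msr1 and Fcer2a were named after their values were seen. Alternatives were the methods' test, brighter probe sets, cyclic loess, array weights, a trended robust spread, pooling, Y-linked signal less Xist and the replicate number as terms, single samples, pools or arrays without Y-linked signal alone, averaging the probe sets of each gene, and dropping each array in turn. The probe set on the own chromosome was an alternative added after the data were seen, as were the counts of each list without VD(+) replicate 1. The share of all genes at a nominal p under 0.05 is not given for these alternatives and counts.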

Additional observations from a re-analysis of the deposited data

How the results depend on the processing

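Over 23 alternatives none of the 7 chaperones passed the adjusted p in any of 161 fits of a gene, and the direction was kept in all but 2, both of Dnaja1, which was -0.038 as the mean of its probe sets and -0.22 on the probe set of its own chromosome. The median of the 7 stayed above 0, between 0.090 and 0.19 when 1 array was left out. Hsph1 ranged from 0.32 to 0.79 and kept a nominal p under 0.05 in 13 of 23. The number of the 7 at a nominal p under 0.05, 1 in the report, was 0 by the methods' test, with single samples alone, with pools alone and with a replicate block, 2 on own-chromosome probe sets (Hsph1 higher and Dnaja1 lower), and 0 to 3 when 1 array was left out (0 without VD(+) replicate 1, replicate 3 or pool 2 or VD(-) replicate 3 or pool 2, and 3 without VD(+) replicate 2). The 17 network genes higher at that threshold became 11 under cyclic loess, 4 with single samples, 3 with pools, 9 with arrays without Y-linked signal, and 9 to 19 when 1 array was left out (9 without VD(+) replicate 1 and 11 without VD(+) replicate 3 or pool 2). The 42 probe sets called in all became 9 by the methods' test, 1 with single samples, 2 with pools, 25 with the Y-linked and Xist signal as a covariate, 12 without arrays of Y-linked signal, 3 with the replicate block and 7 to 43 when 1 array was left out. Same-numbered arrays showed little shared deviation: correlations lay between -0.052 and 0.061, and 1 of 5 VD(+) arrays correlated best with its own number. These correlations cannot show whether same-numbered arrays share a batch. With the replicate block, Hsph1 was 0.47 with an adjusted p of 0.716. The cause of these changes was not tested. No array stood apart by Dixon's criterion in any of the 14 groups of 5 values of a gene. With 5 arrays per group, the groups overlapped in all 7 chaperones on their brightest probe sets, and no difference passed the adjusted p.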

Other observations

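The chaperones of the endoplasmic reticulum answer mainly to the unfolded protein response of that compartment. Of 16 measured, 12 lay above 0, where 57.1% of brighter genes did. The median of the list was 0.084, and 0 were called at an adjusted p. At a nominal p under 0.05, 2 were higher (0 without VD(+) replicate 1), where 4.05% of all genes were. The 2 were Sdf2l1, a partner of the HSP70 of that compartment, at 7.04 to 7.64 in VD(+) and 7.34 to 7.83 in VD(-), a difference of 0.36 (SE 0.14, adjusted p = 0.634), and Creld2, a secreted stress protein, at 0.23 (adjusted p = 0.695). Hspa5, the HSP70 of the endoplasmic reticulum, differed by 0.18 (SE 0.10, adjusted p = 0.773), and by 0.092 without VD(+) replicate 1. Hsp90b1, its HSP90, differed by 0.092 (SE 0.068, adjusted p = 0.815).

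Immediate early genes, which cells switch on within minutes of many stimuli, lay on the other side of 0. Of 20 measured, 14 were lower in VD(-), with a median of -0.13, where 50.3% of all genes lay above 0. At a nominal p under 0.05, 3 were lower, where 2.95% of all genes were, and 0 passed an adjusted p. Without VD(+) replicate 1 the median was -0.076 and 3 were lower at that threshold. Nr4a1, an orphan nuclear receptor, read 5.09 to 5.49 in VD(+) and 4.85 to 5.12 in VD(-), a difference of -0.29 (SE 0.092, adjusted p = 0.540). Egr2, a zinc finger transcription factor, differed by -0.36 (adjusted p = 0.598) and Klf2, named after its values were seen, by -0.28 (adjusted p = 0.618). VD(+) replicate 1 had the highest list mean of these genes at 6.41 and the lowest mean of the 7 heat shock chaperones, and the relation between the lists was not tested.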
